A study of Mus musculus with 25 samples.

Results

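The 7 genes that encode the Fos and Jun subunits of the AP-1 transcription factor were followed in KPC cells, a mouse pancreatic ductal adenocarcinoma line on a C57BL/6 background. The members were the rows of the table of 30926 genes with the symbols Fos, Fosb, Fosl1, Fosl2, Jun, Junb and Jund. Each symbol had 1 row, and 6 of the 7 genes reached 5 CPM (counts scaled to 1e+06 per library) in at least 5 libraries and so entered the tests. Messenger RNA was measured in 5 groups of 5 libraries. Of these, 3 groups were derivatives of the line grown without glutamine, which carried the first short hairpin against Slug (shSlug1), the second one (shSlug2) or a control hairpin against luciferase (shLuc). The other groups were parental cells in glutamine-free medium (starved) and parental cells in complete medium. All groups were kept in their medium for 24 h with 10% serum, and the serum of the glutamine-free medium was dialysed. Whether the serum of the complete medium was dialysed was not established here, and its part in the comparison of starved with complete medium was not tested. Hairpin cells were measured in glutamine-free medium, and no hairpin group in complete medium was among the samples. Whether replicates were separate cultures, and whether a hairpin line was 1 clone or a pool, was stated nowhere in the labels, so p-values measure the spread between these libraries, which may be technical.

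AP-1 is a dimer of basic leucine zipper (bZIP) proteins. A Jun protein can pair with itself or with a Fos protein, whereas Fos proteins need a Jun partner to bind DNA, and the dimers recognise the TPA response element. Fos, Fosb, Jun and Junb are immediate early genes that growth factors and stress switch on within minutes through ERK, JNK and p38 kinases, and Fosl1 (the protein FRA1) and Fosl2 (FRA2) follow with a delay and lack the transactivation domain of FOS. Jund is transcribed more constantly and restrains proliferation in fibroblasts. In carcinoma cells FRA1 is known as the Fos protein that accumulates under RAS and ERK signalling and goes with a mesenchymal state.

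The genes lie on 6 chromosomes, and their spans are given on mm10 in the GENCODE M21 annotation. Fosl1 (ENSMUSG00000024912.5) spans chr19:5447547-5455946 and Fosl2 (ENSMUSG00000029135.10) chr5:32135801-32157842, both on the plus strand. Fos (ENSMUSG00000021250.13) spans chr12:85473890-85477273 on the plus strand and Fosb (ENSMUSG00000003545.3) chr7:19302696-19310051 on the minus strand. Jun (ENSMUSG00000052684.4) spans chr4:95049034-95052222 and Junb (ENSMUSG00000052837.6) chr8:84974484-84978718, both on the minus strand. Jund (ENSMUSG00000071076.6) spans chr8:70698949-70700616 on the plus strand. The 250 bases upstream of the start are shown for the 3 Jun genes, which moved in different directions under starvation. They are from RefSeq on GRCm38.p6, written 5′ to 3′ on the gene's strand, and capitals mark matches to the motifs named after them.
Jun (chr4:95052223-95052472, minus strand): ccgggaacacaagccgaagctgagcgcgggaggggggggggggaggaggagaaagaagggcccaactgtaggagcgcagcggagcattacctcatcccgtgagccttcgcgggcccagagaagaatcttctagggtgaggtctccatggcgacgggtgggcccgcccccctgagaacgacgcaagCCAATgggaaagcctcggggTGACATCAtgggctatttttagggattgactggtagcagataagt
Junb (chr8:84978749-84978998, minus strand): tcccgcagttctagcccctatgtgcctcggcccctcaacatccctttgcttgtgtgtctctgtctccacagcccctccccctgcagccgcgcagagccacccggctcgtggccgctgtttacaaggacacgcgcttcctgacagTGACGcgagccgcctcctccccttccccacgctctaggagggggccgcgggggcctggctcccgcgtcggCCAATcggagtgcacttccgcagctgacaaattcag
Jund (chr8:70697489-70697738, plus strand): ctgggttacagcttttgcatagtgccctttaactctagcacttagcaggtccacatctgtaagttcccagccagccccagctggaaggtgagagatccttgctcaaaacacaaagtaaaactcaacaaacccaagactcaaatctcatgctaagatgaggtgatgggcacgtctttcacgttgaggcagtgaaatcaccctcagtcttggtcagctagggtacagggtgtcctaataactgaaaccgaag

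In these windows 8 motifs were searched on both strands. They were the TPA response element TGAGTCA, its variant TGACATCA, the cyclic AMP response element TGACGTCA, its core TGACG, the amino acid response element TGATGNAA, the Slug E-box CAGGTG, the TATA box TATAAA and the CCAAT box CCAAT. The core TGACG is part of TGACGTCA, so a match of the longer motif is also a match of the core. The Jun window held TGACATCA from -45 to -38 and CCAAT from -65 to -61, counted back from the start. TGACATCA, the site through which JUN acts on its own gene, was present in 2.93% of the 32851 upstream windows of all genes, and CCAAT in 33.8%. The Junb window held TGACG from -106 to -102 and CCAAT from -36 to -32, and TGACG was in 17.8% of all windows. None of the 8 motifs was in the Jund window or the Fosl2 window. The GENCODE start of Jund lies downstream of its RefSeq window, at 70698949, against a window end of 70697738. The GENCODE span of Fosl2 begins at 32135801, upstream of its RefSeq window (32136222 to 32136471), so that window lies inside the span. Fos held TGACG from -66 to -62 and again from -129 to -125, with TATAAA from -33 to -28. Fosb held TGACG from -60 to -56 and CAGGTG at -153 to -148 and at -146 to -141, and CAGGTG was in 17.2% of all windows. Of the 7 members, 6 had a window.

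The libraries were shallow. Recovered totals ran from 158729 counts (starved replicate 3) to 549893 (starved replicate 4), so 1 count was worth 1.82 to 6.30 CPM, and the replicate libraries of every group differed by more than sampling noise. Snai2, the gene of Slug, averaged 6.09 ± 3.75 CPM with shSlug1, 4.29 ± 2.89 with shSlug2 and 55.9 ± 24.0 with shLuc (SD, n = 5 each). In parental cells it averaged 79.5 ± 14.5 CPM in starved and 7.54 ± 5.42 in complete medium. The 8 epithelial and ductal markers summed to between 2117 and 6453 CPM in every library, although Epcam did not exceed 5.36 CPM. Markers of fibroblasts, endothelium, acinar cells and islets summed to at most 46.9 CPM in any library, with Col3a1 and Gcg at 0 in all 25 libraries. Leucocyte markers, 7 of 8 of which were in the table, summed to 9.41 to 31.5 CPM in starved and 55.1 to 81.5 CPM in complete medium. Nearly all of that was Cd14, and the defining marker Ptprc had no count in either parental group; the part of Cd14-expressing cells in the results was not tested. Of the epithelial markers 7 were tested, and at an adjusted p under 0.05 starvation lowered 6 of them and raised 1 (Sox9). Of all 12473 genes tested, 11.7% were lower and 10.8% higher. In shLuc against starved parental cells 5 of these markers were higher and 0 lower, where 13.5% of all genes tested were higher and 10.1% lower. Mitochondrially encoded transcripts took 25.1% of the counts on average in starved and 24.0% in complete medium. With shSlug1, shSlug2 and shLuc they averaged 20.9%, 16.2% and 19.8%. Their share was 24.3% and 26.5% in shSlug1 replicates 4 and 5, against 17.3% to 18.3% in the other shSlug1 libraries. The counts of these 2 sets of shSlug1 libraries also differed, with a chi-square per degree of freedom of 2.633 to 3.755 for pairs across the sets. Pairs within a set had 1.375 to 1.593, and the highest pair of any other group had 3.221 (complete replicates 3 and 5). What separates the sets was not tested.

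The level of each gene and its spread are plotted by library. The kit reads the 3′ ends of transcripts, so counts do not grow with transcript length, and CPM are set side by side between genes below on that basis.

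**Figure D1:**
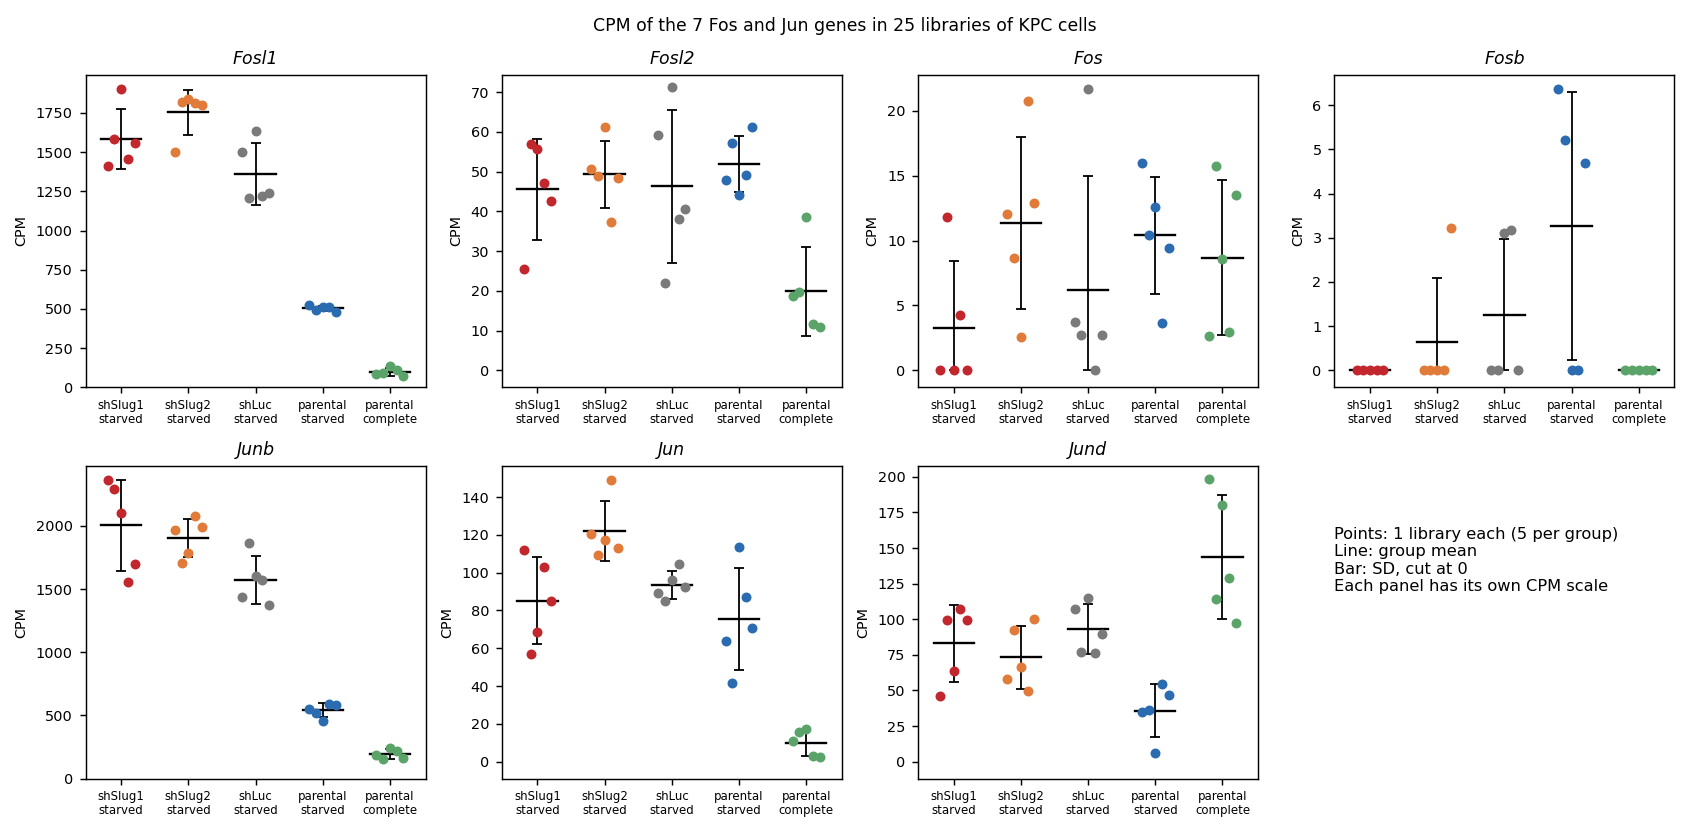
CPM of the 7 genes in 25 libraries, with the 5 groups along the x axis and a CPM scale of its own in each panel. Points are libraries, lines group means and bars SD cut at 0. Fosl1 and Junb stand highest in the 3 hairpin groups, between in starved parental cells and lowest in complete medium, while Jund is highest in complete medium and Fos and Fosb lie near the detection limit.

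Glutamine starvation of parental cells raised 4 of the 6 tested genes and lowered 1. Fosl1, Fosl2, Jun and Junb rose, by 2.61-fold to 7.65-fold in mean CPM, and Jund was 4.00-fold lower. Among all 12473 genes tested, 22.4% were called at an adjusted p under 0.05, 10.8% higher and 11.7% lower. With DESeq2 all 5 members were called too, and 19.6% of all genes, and with edgeR 5 members and 24.6%. The median log2 difference (starved minus complete) of the 6 members was 1.48, against -0.06 over all genes tested. The members were chosen with earlier results of these data known, so this contrast describes them and is no independent test. The starved and complete libraries did not overlap for any of the 5 called members, and for 15.7% of all genes tested. In bulk RNA, fewer cells that express a gene and less RNA per cell cannot be told apart.

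Of the Fos family, Fosl1 was the most abundant. It had 523, 489.8, 510.3, 511 and 479.7 CPM in the starved libraries, replicates 1 to 5, against 85.7, 90.6, 135, 111 and 70.2 CPM in complete medium. Every starved library stood above the highest complete library by more than the range within either group. The log2 difference was 2.37 (SE 0.12, adjusted p = 4.2e-25), a 5.10-fold higher mean. The starved libraries had an SD of 17.5 CPM around 503 CPM, or 3.48% of the mean. Counting error alone would give about 8.32% at the mean count, so this small spread does not measure how steady the gene was.

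Fosl2, the other late member, was much less abundant than Fosl1. It had 47.8, 57.3, 44.1, 49.1 and 61.1 CPM in starved, against 18.7, 19.7, 38.6, 11.7 and 10.8 CPM in complete medium. Complete replicate 3, at 38.6 CPM, came closest to the starved range without reaching it. The log2 difference was 1.47 (SE 0.31, adjusted p = 0.00015).

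Fos, the founding member, was near the detection limit in every group. It had 15.9, 10.4, 12.6, 3.64 and 9.41 CPM in starved and 2.68, 15.8, 8.57, 2.93 and 13.5 CPM in complete medium, which is 13 and 15 counts in all. The ranges overlapped, and the log2 difference of 0.38 had a 95% interval of -1.16 to 1.92 (adjusted p = 0.79). Differences inside that interval were not excluded at this depth. Fosb had 4 counts in the starved libraries, 2 in replicate 1 and 1 each in replicates 2 and 5, and no count in complete medium, where 3 counts over the group correspond to 1.66 CPM. It did not reach the level for the test. An exact permutation test gave p = 0.167 (two-sided, 5 against 5). With a count in only 3 libraries, all of them starved, that test could not give a smaller p, so it cannot decide whether Fosb differed.

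Of the Jun family, Junb was the most abundant. Its product is a weaker activator than JUN and can oppose it on some promoters. Junb had 548, 521, 454, 589 and 583 CPM in starved, against 190.1, 154, 240.1, 219.7 and 165 CPM in complete medium. All starved libraries were above all complete libraries, with a log2 difference of 1.49 (SE 0.12, adjusted p = 2.7e-16). The longest annotated Junb transcript overlaps the end of Prdx2 on the opposite strand, and the sources used here do not say whether counting used strand. Prdx2 averaged 278 ± 57.3 CPM in starved and 317 ± 35.5 CPM in complete medium, so it did not rise with Junb.

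Jun had the largest fold change of the family and a low level in complete medium. Its values were 63.8, 41.7, 113, 87.3 and 70.5 CPM in starved and 10.7, 15.8, 17.1, 2.93 and 2.70 CPM in complete medium. All starved libraries were above all complete libraries, although the complete values rest on 1 to 8 counts each. The ratio of group means was 7.65 and the log2 difference 3.05 (SE 0.30, adjusted p = 6.6e-13).

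Jund moved the other way. It had 35.1, 36.5, 6.30, 54.6 and 47.0 CPM in starved, against 198, 114, 180.1, 129 and 97.2 CPM in complete medium. No starved library reached the lowest complete library, and the log2 difference was -2.20 (SE 0.30, adjusted p = 2.2e-08). The value of 6.30 CPM is 1 count in the shallowest library, and without that library the log2 difference was -1.68 (adjusted p = 8.0e-08). The overlapping genes Ccdc85b (of Fosl1), Junos (of Jun) and Gm11175 (of Jund), all on the opposite strand, had at most 10.7, 9.56 and 5.50 CPM in any library.

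Because the members moved unequally, the makeup of the pool changed. The 7 genes summed to 1219 ± 65.2 CPM in starved and 474 ± 99.5 CPM in complete medium (SD, n = 5 each). Within the Jun family, Jund made up 5.36% ± 2.50 in starved and 40.9% ± 5.30 in complete medium, while Junb made up 82.9% ± 3.14 and 56.3% ± 6.23 in starved and complete medium. Within the Fos family, Fosl1 made up 88.5% ± 1.83 in starved and 77.7% ± 6.66 in complete medium. The ratio of Jund to Junb was 0.0642 ± 0.0302 in starved and 0.743 ± 0.185 in complete medium, and the highest starved library (0.0926) was far below the lowest complete library (0.587). These shares are set by the changes above and were not tested apart from them.

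**Figure D2:**
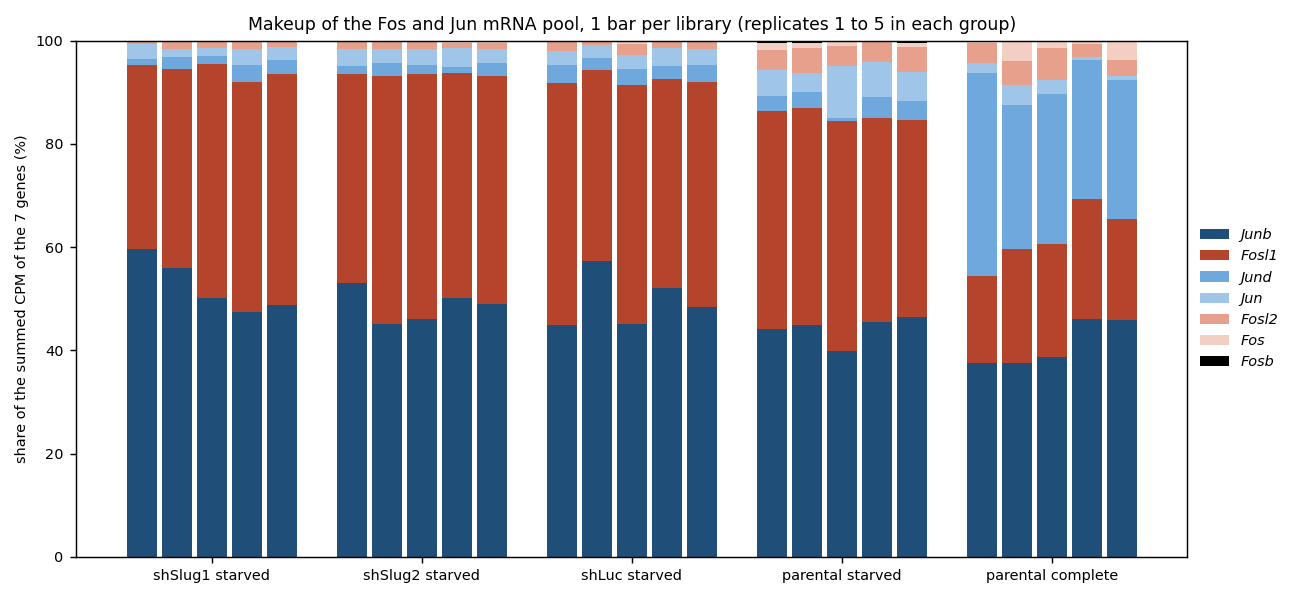
Share of each gene in the summed CPM of the 7 genes, 1 bar per library, in percent on the y axis, with the libraries grouped by condition. Junb and Fosl1 together made up 61.9% on average in complete medium, 85.5% in starved parental cells and 92.4% to 94.2% in the hairpin groups, and the share of Jund is largest in complete medium.

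The shLuc line was compared with the parental line, both starved, since it is the control for the Slug hairpins. The comparison uses the same starved libraries as the one above. What separates the lines (the vector, the hairpin, selection and time in culture) cannot be told apart here. Of the 6 tested members 3 were higher in shLuc and none was lower, where 23.6% of all genes tested were called, 13.5% higher and 10.1% lower. Both edgeR and DESeq2 also called 3 members, against 24.1% and 19.2% of all genes. Junb was 2.91-fold, Fosl1 2.70-fold and Jund 2.59-fold higher. The median log2 difference (shLuc minus parental starved) of the members was 0.90, against 0.10 over all genes tested. Here too the contrast is a description, since the choice of members was made with earlier results known.

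Fosl1 had 1498, 1204, 1637, 1218 and 1237 CPM with shLuc, against 479.7 to 523 CPM in starved parental cells (log2 difference 1.42, SE 0.12, adjusted p = 1.8e-14). Junb had 1435, 1864, 1600.2, 1569.8 and 1376 CPM with shLuc, against 454 to 589 CPM (log2 difference 1.54, SE 0.12, adjusted p = 3.1e-16). Every shLuc library was above every starved parental library for both genes, by more than the range within either group. Jund had 108, 77.0, 115, 76.0 and 89.6 CPM with shLuc, against 6.30 to 54.6 CPM in starved parental cells. The groups did not overlap (log2 difference 1.60, SE 0.30, adjusted p = 2.7e-05), and without starved replicate 3 the log2 difference was 1.09 (adjusted p = 0.00041). Non-overlap was seen in 14.6% of all genes tested in this comparison. The mitochondrially encoded share did not overlap between these groups either, with 17.3% to 21.7% in shLuc and 23.8% to 28.0% in starved parental libraries, and its part in the results was not tested.

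The other members were not called between these lines. Jun had 89.0, 85.2, 96.1, 104 and 92.3 CPM with shLuc, inside the starved parental range of 41.7 to 113 CPM (log2 difference 0.38, 95% interval -0.21 to 0.97). Fosl2 had 46.3 ± 19.3 CPM with shLuc and 51.9 ± 7.07 in starved parental cells, a log2 difference of -0.26 (95% interval -0.87 to 0.35). Fos had 6.18 ± 8.79 and 10.4 ± 4.53 CPM in the shLuc and starved parental libraries (95% interval of the log2 difference -2.82 to 0.26).

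The Slug hairpins were set against shLuc, to ask which genes depend on Slug in glutamine-depleted cells. Both comparisons share the 5 shLuc libraries. With limma, 0 of 6 tested members were called in either, where 1.46% of all genes tested were called with shSlug1 (0.369% higher, 1.09% lower) and 0.649% with shSlug2 (0.473% higher, 0.176% lower). At an unadjusted p under 0.05 there was 1 member with shSlug1 (Junb) and 2 with shSlug2 (Junb and Fosl1). Of all 12473 genes tested, 1611 with shSlug1 and 1132 with shSlug2 reached that level. The mitochondrially encoded share was 17.3% to 26.5% with shSlug1 and 14.2% to 17.7% with shSlug2, against 17.3% to 21.7% with shLuc, and its part in these comparisons was not tested. On the recovered counts edgeR called 1 member with shSlug1 and 0 with shSlug2, and DESeq2 called 1 in each, against 2.35% and 1.1% of all genes by edgeR and 2.09% and 1.12% by DESeq2 for shSlug1 and shSlug2.

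Junb carried the call with shSlug1. It had 2364, 2292, 2105, 1557 and 1696 CPM with shSlug1, against 1435, 1864, 1600.2, 1569.8 and 1376 CPM with shLuc. The ranges overlapped, while 3.13% of all genes tested did not overlap in this comparison, with 3 of 5 shSlug1 libraries above all shLuc libraries, and replicates 4 and 5, those with a high mitochondrial share, the lowest. The log2 difference was 0.34 (95% interval 0.10 to 0.58, adjusted p = 0.14 with limma, 0.024 with edgeR and 0.0015 with DESeq2). Without shSlug1 replicates 4 and 5 and starved replicate 3, an alternative added after seeing the data, it was 0.53 (adjusted p = 0.014). With shSlug2 Junb had 1965, 1709.7, 1784, 2076 and 1988 CPM, and the log2 difference from shLuc was 0.28 (95% interval 0.05 to 0.52, adjusted p = 0.41). Prdx2 averaged 362 ± 41.0 CPM with shSlug1, 343 ± 20.9 with shSlug2 and 314 ± 38.1 with shLuc.

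Fosl1 had 1500.2, 1819, 1841, 1815 and 1800.3 CPM with shSlug2, against 1498, 1204, 1637, 1218 and 1237 CPM with shLuc. All shSlug2 libraries but replicate 1 were above the highest shLuc library. The log2 difference was 0.38 (95% interval 0.13 to 0.62, adjusted p = 0.19 with limma, 0.088 with edgeR and 0.015 with DESeq2). With shSlug1 it had 1410.4, 1586, 1903, 1458 and 1559 CPM, a log2 difference from shLuc of 0.22 (95% interval -0.02 to 0.47, adjusted p = 0.45). No shSlug1 or shSlug2 library fell below the lowest shLuc library for Fosl1.

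Jun had 120.4, 109, 117, 149 and 113 CPM with shSlug2, against 89.0, 85.2, 96.1, 104 and 92.3 CPM with shLuc. The groups did not overlap, as for 2.07% of all genes tested, and the exact permutation test gave p = 0.00794 (two-sided, 5 against 5, the smallest possible). In the fit across all genes the log2 difference was 0.38 (95% interval -0.22 to 0.97, adjusted p = 0.79). With shSlug1 Jun had 112, 56.9, 68.8, 103 and 85.03 CPM, a range that contains the shLuc range (log2 difference -0.17, 95% interval -0.76 to 0.42).

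The remaining members overlapped between the hairpins and shLuc. Jund averaged 83.1 ± 26.8 CPM with shSlug1, 73.2 ± 21.9 with shSlug2 and 93.0 ± 17.6 with shLuc (95% intervals -0.80 to 0.38 and -0.96 to 0.22). Fosl2 averaged 45.5 ± 12.7 CPM with shSlug1, 49.3 ± 8.51 with shSlug2 and 46.3 ± 19.3 with shLuc (95% intervals -0.58 to 0.64 and -0.43 to 0.79). Fos had no count in 3 of 5 shSlug1 libraries and 1 of 5 shLuc libraries, and 6, 18 and 10 counts in all with shSlug1, shSlug2 and shLuc. Fosb had 0, 1 and 2 counts in these groups, where 3 counts over the group correspond to 1.83, 1.76 and 1.83 CPM.

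Between the hairpins themselves, shSlug1 against shSlug2, limma called 0 members, where 0.513% of all genes tested were called (0.0241% higher, 0.489% lower). Both edgeR and DESeq2 also called 0 members, against 0.706% and 0.681% of all genes, and the libraries did not overlap for 0 members and 2.08% of all genes tested. At an unadjusted p under 0.05 there was 1 of 6 tested members, Fos, and 1196 of all 12473 genes tested. Fos had a log2 difference of -2.19 (95% interval -3.73 to -0.65, adjusted p = 0.26), with 0, 11.8, 0, 4.29 and 0 CPM with shSlug1 and 12.0, 8.63, 2.55, 20.7 and 12.9 CPM with shSlug2. Jun was lower with shSlug1 in 4 of 5 libraries than in any shSlug2 library (log2 difference -0.55, 95% interval -1.14 to 0.05, adjusted p = 0.56).

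**Figure D3:**
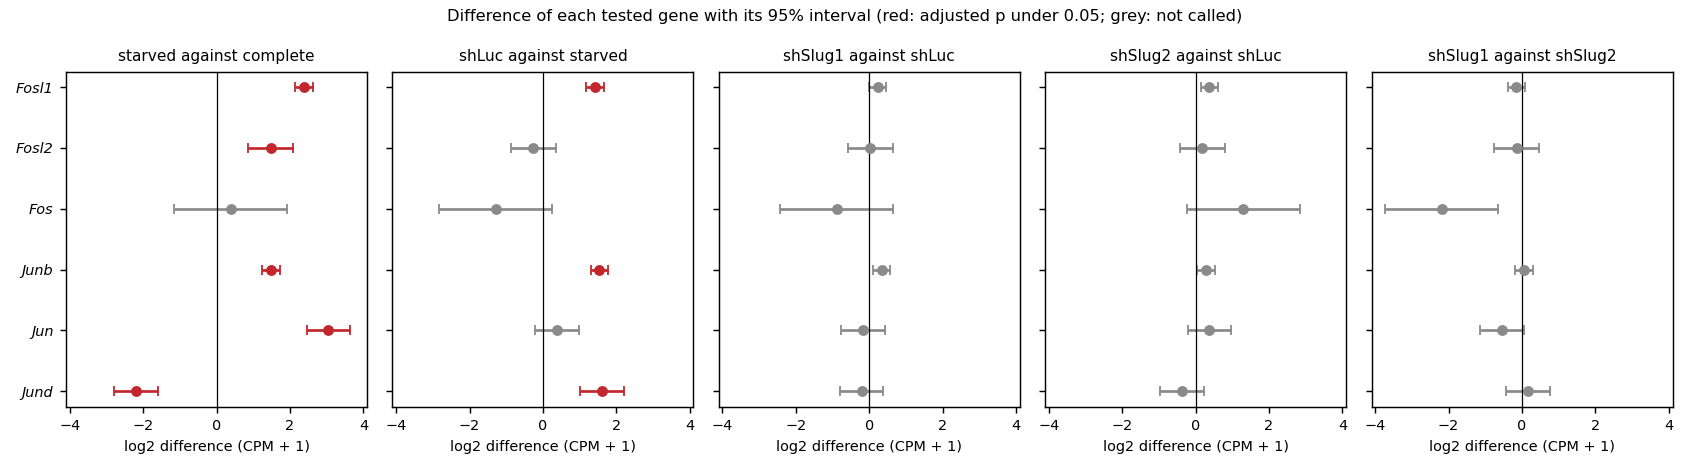
Log2 difference of log2(CPM + 1) on the x axis for the 6 tested genes, 1 panel per comparison, with 95% intervals of the limma fit as bars. Red points were called at an adjusted p under 0.05 and grey ones were not. Starvation called 5 genes, the shLuc line against the parental line 3, and the Slug hairpin panels 0.

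Ordered by mean CPM, Fosl1 and Junb had the same steps. The 3 hairpin groups came first and overlapped each other, starved parental cells followed without overlap, and complete medium came last without overlap. Jun stood highest with shSlug2, which did not overlap with shLuc. The lowest shSlug2 library (109.4 CPM) was below the highest shSlug1 (112.2 CPM) and starved parental (113.4 CPM) libraries, so it overlapped with those groups. After shSlug2 came shLuc, shSlug1 and starved parental cells, which overlapped, and complete medium below them without overlap. The order of Jund was complete medium, shLuc, shSlug1, shSlug2 and starved parental cells, and all neighbours in it overlapped. For Fosl2 the 4 glutamine-free groups lay between 45.5 and 51.9 CPM and complete medium at 19.9, and the libraries of shSlug1, shSlug2 and shLuc, but not those of starved parental cells, overlapped with complete medium.

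Over the 25 libraries the log2(CPM + 1) values of Fosl1 and Junb had a Pearson r of 0.98. After the group means were taken out it was 0.35, and for Fosl1 with Fosl2, whose overall r was 0.71, it was 0.64. These correlations describe the libraries, which share groups and differ in depth. By the overall r the genes most like Fosl1 among 5965 genes with a mean of at least 20 CPM were Gadd45g (r = 0.99), Fez2 (0.99) and Cdkn1a (0.98). After the group means were taken out, r was 0.34 for Gadd45g, 0.47 for Fez2 and 0.60 for Cdkn1a. Gadd45g, a stress-inducible growth arrest gene, averaged 509 CPM in starved and 33.6 CPM in complete medium, and 2545, 2754 and 2527 CPM with shSlug1, shSlug2 and shLuc. The genes most like Junb were Eif6 (0.99), Zcrb1 (0.98) and H2afj (0.98), and those most like Jun were Gadd45a (0.97), Cyth2 (0.95) and Glipr1 (0.93). Jund was most like Ly6a (0.92), Mrpl10 (0.84) and Ube2c (0.83). Ly6a averaged 7.12 CPM in starved and 80.5 CPM in complete medium, and 40.3, 26.0 and 43.7 CPM with shSlug1, shSlug2 and shLuc. Fosl2 was most like Psph (0.86), Gadd45a (0.84) and Gnpnat1 (0.82), and Fos, with few counts, like Uhrf2 (0.72), Rcor1 (0.66) and Ipo8 (0.65). For the genes named with members other than Fosl1, r without the group means ran from 0.47 (Rcor1 with Fos) to 0.79 (Ly6a with Jund).

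The other genes of the pathway were taken as 5 lists. These lists were chosen with earlier results of these data known, so their counts and medians are descriptions. Of the bZIP proteins that can pair with Fos or Jun proteins, 9 of 12 were tested, and starvation raised 3 and lowered 1 (median log2 difference 0.45, against -0.06 over all genes tested). All list counts under starvation stand against 22.4% of all genes called, 10.8% higher and 11.7% lower. Maff, a small Maf protein, had 82.3 ± 11.9 CPM in starved and 23.2 ± 7.55 CPM in complete medium (log2 difference 1.83, adjusted p = 3.0e-11), and Mafg had 90.3 ± 14.2 and 39.1 ± 14.8 CPM in starved and complete medium. Atf3, a stress-induced repressor that pairs with Jun proteins, had 10.6 ± 3.57 CPM in starved and 0.788 ± 1.76 CPM in complete medium (adjusted p = 0.00018). It had a count in 1 of 5 complete libraries, and its mean there is below the 1.66 CPM of 3 counts over the group. Its log2 difference depended on the pseudocount, at 3.02 with 1, 3.78 with 0.5 and 1.45 with 5. Batf3 fell, with 2.13 ± 2.92 CPM in starved and 17.1 ± 10.5 CPM in complete medium. Between shLuc and starved parental cells Maff was higher (133 ± 15.5 against 82.3 ± 11.9 CPM) and Atf2, a CREB family partner of JUN, lower (57.7 ± 18.2 against 100.3 ± 12.0 CPM, a call lost without shLuc replicate 2, adjusted p = 0.056).

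Of the 14 kinases upstream of AP-1, all tested, starvation raised 2 and lowered 2, with a median log2 difference of -0.09. This share of calls is near that of all genes, and it is not a result about the kinases as a group. The ERK kinase Map2k1 had 95.8 ± 21.9 CPM in starved and 45.2 ± 11.2 CPM in complete medium, and the JNK kinase Map2k4 had 74.0 ± 8.25 CPM in starved and 37.6 ± 12.3 CPM in complete medium. Mapk3, which encodes ERK1, fell (134 ± 48.6 and 199 ± 37.0 CPM in starved and complete medium), as did Rps6ka1 (9.91 ± 9.99 and 38.3 ± 12.4 CPM). The call of Mapk3 was lost without starved replicate 1 (adjusted p = 0.085) and that of Rps6ka1 without starved replicate 2 (adjusted p = 0.068). In shLuc against starved parental cells Map2k1 was lower (48.7 ± 13.9 and 95.8 ± 21.9 CPM), Map2k3 was higher (109 ± 23.6 and 61.8 ± 16.7 CPM) and Map2k2 was lower. The call of Map2k2 was lost with no filter, with TMM scaling, without starved replicate 3, 4 or 5, without shLuc replicate 3 and without the 3 libraries (adjusted p up to 0.14). Of 11 tested SRF and CREB type regulators of AP-1 genes, Mef2a and Atf1 rose and 0 fell under starvation, which is also near the share called over all genes, and Atf1 lost its call in 8 alternatives (adjusted p up to 0.13, without complete replicate 3). In shLuc against starved parental cells limma, edgeR and DESeq2 called 0 of these 11 regulators, with 2 at an unadjusted p under 0.05. Over all 12473 genes tested in that comparison, limma called 23.6%, and 4410 had an unadjusted p under 0.05. Of 9 tested genes for turnover of AP-1 protein and mRNA, 1 rose and 0 fell, where 10.8% of all genes tested rose and 11.7% fell. It was the kinase Gsk3b (274 ± 28.1 CPM in starved and 187 ± 15.8 CPM in complete medium), and with shLuc it was lower than in starved parental cells (180.1 ± 19.9 CPM).

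Of 33 genes known as AP-1 targets from other systems, 28 were tested, and starvation raised 16 and lowered 4. Their median log2 difference was 0.97, against -0.06 over all genes tested. Because the list was chosen with earlier results of these data known, these values are no independent test of AP-1 activity. Hmga2, a chromatin architecture gene, rose to 1178 ± 113 CPM in starved, against 328 ± 26.8 CPM in complete medium. The EGF receptor ligand genes Hbegf (347 ± 41.8 against 105 ± 21.8 CPM) and Ereg (62.7 ± 17.7 against 6.18 ± 1.04 CPM) and the matricellular gene Cyr61 (196 ± 37.2 against 41.9 ± 9.73 CPM) rose too. Spp1, which encodes osteopontin, fell to 518 ± 59.1 CPM in starved, against 2290 ± 264 CPM in complete medium.

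In shLuc cells against starved parental cells 7 targets were higher and 3 lower, where 13.5% of all genes tested were higher and 10.1% lower. Their median log2 difference was 0.17, against 0.10 over all genes tested. Phlda1 was 3.42-fold and Plaur, the urokinase receptor gene, 2.03-fold higher, while Spp1 (234 ± 29.3 against 518 ± 59.1 CPM) and Cd44 (249 ± 76.3 against 399 ± 41.6 CPM) were lower. With shSlug1 against shLuc 0 targets were higher and 4 lower, where 0.369% of all genes tested were higher and 1.09% lower. The 4 were Ereg (18.5 ± 8.21 against 73.0 ± 18.0 CPM), Ccnd1 (481 ± 47.1 against 772 ± 68.3 CPM), Cd44 (145 ± 36.0 against 249 ± 76.3 CPM) and Hmga2 (892 ± 65.0 against 1178 ± 139 CPM). The call of Hmga2 was lost in 9 alternatives, among them edgeR (adjusted p = 0.052) and without shLuc replicate 1 (adjusted p = 0.11), and that of Cd44 without the 3 libraries named above (adjusted p = 0.062). With shSlug2 limma called 0 targets, edgeR 2 and DESeq2 3, against 0.649%, 1.1% and 1.12% of all genes tested. The 4 genes called lower with shSlug1 also had lower means with shSlug2 than in the same shLuc libraries. With shSlug2 they averaged 48.9 ± 11.4 (Ereg), 586 ± 88.1 (Ccnd1), 164 ± 18.5 (Cd44) and 1109 ± 57.5 CPM (Hmga2). An unadjusted p under 0.05 was reached with shSlug2 by 6 targets and by 1132 of all 12473 genes tested. In shSlug1 against shSlug2, Ereg (18.5 ± 8.21 against 48.9 ± 11.4 CPM) and Areg (99.9 ± 23.6 against 193 ± 41.7 CPM) were lower, where 0.489% of all genes tested were lower. The call of Ereg was lost without shSlug2 replicate 2 or 3 (adjusted p up to 0.065) and that of Areg in 10 alternatives (up to 0.15). In the other 4 lists limma called 0 genes in the comparisons of either Slug hairpin with shLuc, and so did edgeR and DESeq2, with 0 or 1 per list and comparison at an unadjusted p under 0.05. Between the hairpins these 4 lists also had 0 calls with all 3 tools, and 0 to 2 genes per list at an unadjusted p under 0.05. Over all 12473 genes tested, that level was reached by 1611 with shSlug1 against shLuc and by 1196 between the hairpins.

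**Figure D4:**
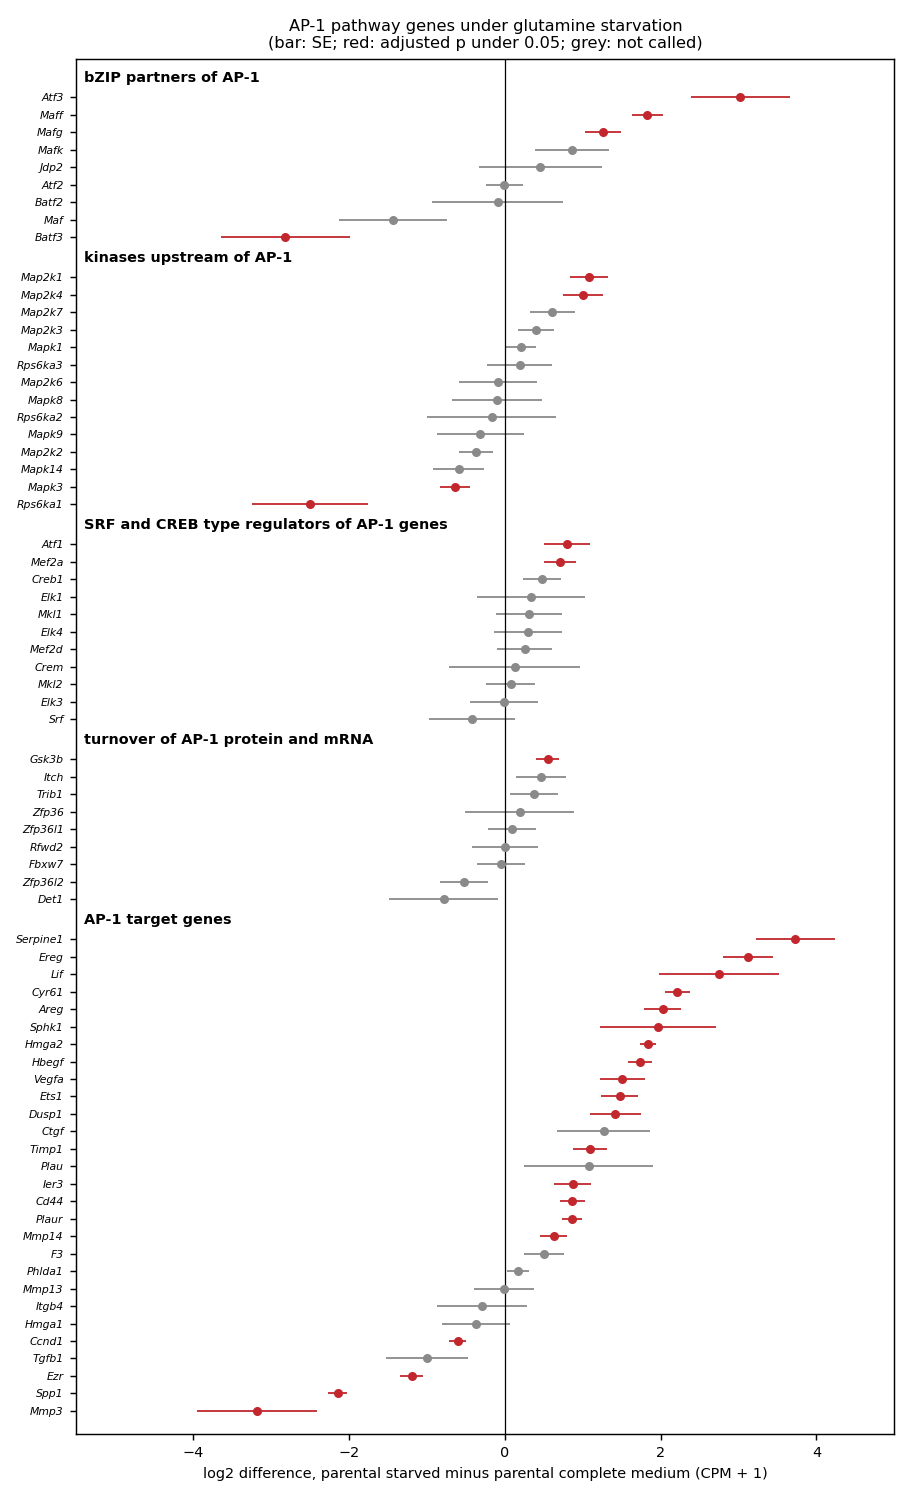
Log2 difference between starved and complete medium on the x axis for the tested genes of the 5 pathway lists, 1 row per gene, with the SE of the limma fit as bars. Red genes were called at an adjusted p under 0.05 and grey ones were not. Most of the red points are in the list of AP-1 target genes, where 16 lie to the right of 0 and 4 to the left.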

How the data were processed

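Total RNA was extracted with the PureLink RNA Mini Kit and made into libraries with the QIAseq UPX 3′ Transcriptome kit, per the labels' protocols. The authors deposited 1 table of CPM, counts scaled to 1e+06 per library, and the build was mm10 per the submitters' processing notes. For the aligner, annotation, molecular identifiers and strand: not given in the sources used here. Dividing each column by its smallest step gave whole numbers for 100% of values above 0 (tolerance 0.001), so counts were recovered.

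Libraries were grouped by their titles. The 12473 genes that reached 5 CPM in 5 or more libraries entered 1 limma-trend fit of the 25 libraries, on log2(CPM + 1) (R 4.3.3, limma version 3.58.1), with 20 residual degrees of freedom, two-sided, with Benjamini-Hochberg adjustment over all genes tested. Fold changes are ratios of mean CPM, and log2 differences, on the pseudocount scale, understate changes of low genes. The alternatives changed the pseudocount to 0.5 or 5, dropped the filter or raised it to 20 CPM, and used TMM scaling, fits of the compared groups alone, the replicate number as a block, edgeR 4.0.16 and DESeq2 1.42.0 on recovered counts, and leaving out libraries. Simulated data were used to test the fit. The named list genes are up to 5 called genes per list and comparison with the smallest p, and the most alike genes are the 3 with the highest r, leaving out predicted genes. The members and lists were chosen with earlier results of these data known. Counting intervals and floors of 3 counts cover counting error only.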

Additional observations from a re-analysis of the deposited data

Results flagged for a closer look

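In 4 of 33 sets of 5 libraries tested, 1 library lay far from the other 4, with a gap of more than 0.71 of the whole range. For continuous, normally distributed values chance flags about 1 in 20 such sets. That rate does not hold at a few counts, and a set with 1 count in all is always flagged, so the 4 cannot be set against it. Fosl1 in shSlug2 replicate 1 was the lowest of its group at 1500.2 CPM, and Jun in shSlug2 replicate 4 was the highest at 149 CPM. Fos in shLuc replicate 3 was the highest at 21.7 CPM, which is 7 counts, and Fosb in shSlug2 replicate 5 was the highest at 3.23 CPM, which is 1 count.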

How the results depend on the processing

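The 5 calls under starvation and the 3 in shLuc against starved parental cells held in every alternative run, with the same direction. In 8 of 590 alternative values the direction of a member turned, in each case of an uncalled difference. With 1 library left out, the log2 difference of Fosl2 ran from -0.20 to 0.22 for shSlug1 against shLuc, -0.054 to 0.36 for shSlug2 against shLuc and -0.24 to 0.042 between the hairpins, and that of Junb between the hairpins ran from -0.0080 to 0.14. Without 3 libraries (starved replicate 3, shSlug1 replicates 4 and 5), that of Jund between the hairpins was -0.092. With shSlug1 the count of members called was 0 with limma, and 1, Junb, with edgeR, with DESeq2 and without the 3 libraries. That last setting, added after seeing the data, leaves out shSlug1 replicates 4 and 5, the lowest of their group for Junb, so it is no separate check. With shSlug2 the count was 0, and 1, Fosl1, with DESeq2. The cause was not tested. Leaving out 1 library left both counts at 0.

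Over all genes, shSlug1 against shLuc gave 182 calls (25.3% higher), 293 with edgeR (51.9% higher), 261 with DESeq2 (57.1% higher) and 99 to 197 with 1 library left out, the lowest without shLuc replicate 5. The second hairpin gave 81, 137 with edgeR and 140 with DESeq2. Between the hairpins there were 64 (4.69% higher), 88 with edgeR (29.5% higher), 85 with DESeq2 (36.5% higher), 38 with TMM scaling, 34 without the 3 libraries and 37 to 79 with 1 library left out, the lowest without shSlug2 replicate 4. The labels' replicate numbers did not pair the libraries (correlations of deviations between -0.05 and 0.03). The replicate block changed no call of a member and gave 2774 calls against 2799 under starvation. Fos, at 6 to 18 counts a group, and Fosb, at 0 to 4, were limited by depth.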
